A study of Homo sapiens and Mus musculus with 27 samples.

Results

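The smooth muscle identity genes described here, 9 in number, were followed across 9 groups of breast cancer cells. They were CARMN, KCNMB1, KCNMA1, LMOD1, SMTN, DES, SYNPO2, SYNM and LPP. Rows were picked by gene name, ignoring letter case, and all 9 had a row in each count table, among 59453 human and 55367 mouse gene names. The genes were chosen with results of this series in view, and CARMN and KCNMB1 had already stood out in the LM2 cells, so the LM2 values are given as a description without p-values. Where an LM2 gene is said to be called or to pass a threshold, this only locates it in the fit over all genes. After a filter on low counts, 7 of the 9 were tested in the LM2 experiment among 18893 genes, 8 in the 4T1 experiment among 16297, and 7 in the LifeAct experiment among 21869.

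The 27 libraries came from 3 experiments with 3 groups of 3 libraries each. In the first, human LM2 cells, a lung-metastatic derivative of the MDA-MB-231 breast cancer line, were labelled control, WT MKL1 OE or caMKL1 OE, where OE is read as overexpression. In the second, the mouse mammary carcinoma line 4T1 carried the same 3 labels. In the third, LM2 cells of WT genotype were grouped as LifeAct negative (the control), low or high, LifeAct being a peptide that binds filamentous actin. The genotype label changes from replicate to replicate in the caMKL1 groups (caMKL1, caMKL2, caMKL3), but title and treatment name caMKL1 for each, which was used. No label says which promoter drives the constructs, whether a line is 1 clone, or whether replicates were separate cultures, so p-values measure only the spread between these libraries, which may be technical.

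MKL1, now named MRTFA, is a coactivator held in the cytoplasm by monomeric actin. Once released it binds serum response factor (SRF) on CArG boxes, short A/T-rich elements in the promoters of cytoskeletal and smooth muscle genes. caMKL1 is usually understood as a constitutively active form that escapes this control. In smooth muscle the partner of SRF is mainly myocardin (MYOCD), and the genes described here are expressed in the mature cell, though not all are restricted to it. CARMN is a long noncoding RNA and host of the microRNAs miR-143 and miR-145. KCNMB1 and KCNMA1 encode the regulatory beta1 subunit and the pore of the large-conductance calcium-activated potassium (BK) channel. LMOD1 nucleates actin filaments, smoothelin (SMTN), synaptopodin 2 (SYNPO2) and LPP bind actin filaments or their anchoring sites, and desmin (DES) and synemin (SYNM) form muscle intermediate filaments.

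The human CARMN gene lies on the plus strand of chromosome 5 at chr5:149406689-149432835 (GRCh38), and both of its microRNAs lie within it. Their mature sequences from RefSeq (GRCh38.p14) are shown because these are the products for which the locus is known; capitals mark the seed, bases 2 to 8, which the microRNAs do not share.
hsa-miR-143-3p: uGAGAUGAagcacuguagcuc
hsa-miR-145-5p: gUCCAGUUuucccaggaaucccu
MIR143 lies inside a CARMN exon on the same strand, with 106 bases shared, and its row held 0 counts in the LM2 libraries. By default featureCounts, which made the counts, leaves reads over both genes uncounted, so this 0 cannot show absence. The MIR145 row, with 0 bases shared, held 0 counts in the LM2 control libraries. It held 3, 0 and 0 in the LM2 MKL1 libraries and 19, 8 and 5 in the LM2 caMKL1 libraries. In 4T1 the Mir143 row held 0 counts in control and with MKL1, and 2, 2 and 2 with caMKL1. These reads come from a polyA-selected library and bear on the primary transcript, not on mature microRNAs, which were not measured.

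RefSeq promoter windows, each 250 bases before to 50 bases after a transcript start, were found for 8 of the 9 human genes, 20 windows in all; DES had no entry. They were searched on both strands for the CArG box (CC, then 6 bases that are each A or T, then GG). An exact match stood in 2 of the 20 windows, beside 454 of all 35116 windows of this length (1.29%). With up to 1 letter off, 18.9% of all windows held a match. The matching windows are shown with the box in capitals, beside those of CARMN and LMOD1, which held no exact match.
SMTN, chr22:31084746-31085045, plus strand: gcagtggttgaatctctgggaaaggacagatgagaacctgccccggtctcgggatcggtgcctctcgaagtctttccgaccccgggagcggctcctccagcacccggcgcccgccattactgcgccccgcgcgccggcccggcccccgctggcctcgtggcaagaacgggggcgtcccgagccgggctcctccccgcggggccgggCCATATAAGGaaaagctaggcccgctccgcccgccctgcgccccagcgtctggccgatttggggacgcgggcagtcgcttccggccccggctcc
LPP, chr3:188212462-188212761, plus strand: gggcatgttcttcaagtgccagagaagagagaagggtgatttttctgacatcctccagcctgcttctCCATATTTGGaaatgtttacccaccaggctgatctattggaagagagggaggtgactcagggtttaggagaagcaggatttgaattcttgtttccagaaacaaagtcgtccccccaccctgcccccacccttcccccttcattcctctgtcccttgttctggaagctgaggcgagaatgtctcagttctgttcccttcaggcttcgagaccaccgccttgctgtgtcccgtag
CARMN, chr5:149406595-149406894, plus strand: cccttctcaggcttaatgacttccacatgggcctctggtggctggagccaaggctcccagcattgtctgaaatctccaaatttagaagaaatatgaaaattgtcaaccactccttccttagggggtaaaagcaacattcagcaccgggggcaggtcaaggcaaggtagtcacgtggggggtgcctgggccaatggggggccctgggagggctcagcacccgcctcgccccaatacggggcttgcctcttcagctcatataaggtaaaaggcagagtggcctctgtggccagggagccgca
LMOD1, chr1:201946499-201946798, minus strand: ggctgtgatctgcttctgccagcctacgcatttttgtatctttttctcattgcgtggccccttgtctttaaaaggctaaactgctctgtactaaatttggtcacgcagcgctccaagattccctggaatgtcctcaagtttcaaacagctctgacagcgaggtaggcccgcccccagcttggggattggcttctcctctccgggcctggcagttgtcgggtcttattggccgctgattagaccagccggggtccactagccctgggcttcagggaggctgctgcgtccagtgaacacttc
The box began 44 bases before the start in SMTN, at 1 of its 4 annotated windows. In LPP it began 183 bases before the start, at 1 of several annotated windows. The other LPP windows held no exact match, among them chr3:188152771-188153070, which lies upstream of it. The CARMN, LMOD1 and KCNMB1 windows each held 2 matches with 1 letter off. A match describes these letters only, and the count tables sum all transcripts of a gene, so the use of a single start was not measured.

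Total counts ranged from 22147429 to 32147377 per library in the LM2 experiment, from 21896459 to 29370432 in 4T1 and from 15581289 to 23678322 in LifeAct. MRTFA, the targeted gene, could check the control labels against the construct labels only, since its summed counts do not tell MKL1 from caMKL1. MRTFA stood at 10.8 ± 0.641 counts per 1e6 scaled counts (CPM, scaled by the trimmed mean of M values; mean ± SD, n = 3 here and below) in LM2 control, 162 ± 20.3 with MKL1 and 218.3 ± 41.5 with caMKL1. In 4T1 the levels of Mrtfa were 39.2 ± 2.28, 2145 ± 56.2 and 624 ± 47.4 CPM, so the MKL1 libraries held more of it than the caMKL1 libraries. Replicate 1 of both the LM2 MKL1 and the LM2 caMKL1 group stood apart from its group: per gene, chi-square against the other replicates was 36.2 to 52.2 for MKL1, where the others differed by 21.3, and 47.1 to 51.4 for caMKL1, where they differed by 3.11. Breast line markers were present in every group. MYOCD, the textbook smooth muscle regulator, had 0 counts in the LM2 and 4T1 libraries, and MYOD1 and PAX7, which define skeletal muscle cells, had 0 in the LM2 libraries.

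CARMN was silent in LM2 control cells and switched to a readily counted level with caMKL1. Its counts were 0, 0 and 0 in control, 79, 47 and 85 with MKL1, and 1981, 1798 and 1890 with caMKL1. The groups did not overlap, and the 3 replicates of each were close together. The levels were 2.36 ± 0.305 CPM with MKL1, at least 61.8-fold over a control floor of 3 counts over the group, and 84.9 ± 8.84 CPM with caMKL1, 35.6-fold over MKL1. Here and below, floors and intervals on counts cover counting error only.

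KCNMB1, the beta1 subunit that makes the BK channel of smooth muscle more sensitive to calcium, followed the same order. Its counts were 0, 0 and 0 in control, 192, 60 and 80 with MKL1 and 1923, 1667 and 1585 with caMKL1. The MKL1 replicates were uneven: replicate 1 reached 6.41 CPM and the other two 2.60 and 2.27. The caMKL1 level was 77.0 ± 2.66 CPM, 20.4-fold over MKL1, a log2 ratio of 4.35 that became 4.98 without MKL1 replicate 1.

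The pore gene KCNMA1 did not share this pattern. Its counts in LM2 were 8, 2 and 5 in control, 9, 4 and 6 with MKL1 and 5, 7 and 4 with caMKL1, too few to be tested, and the groups overlapped. The ratio of caMKL1 to control was 1.23, with a 95% counting interval of 0.568 to 2.66. Per kilobase of exon, KCNMB1 stood at 12.8 CPM with caMKL1 and KCNMA1 at 0.00609. The other beta subunits with caMKL1 were at 0.396 (KCNMB2), 0.475 (KCNMB3) and 0.404 (KCNMB4) CPM per kilobase. Of the 12 further genes listed as BK channel partners, 6 were tested, and with caMKL1 3 were called higher and 1 lower (3 and 2 when scaled by library totals), where 31.9% of all tested genes were higher and 33% lower, shares that the other list counts for this contrast are also to be read against. The values were RYR2 6.45-fold, KCNMB2 from 0.0252 to 1.40 CPM, RYR3 1.95-fold, and CACNB2, a calcium channel subunit, 0.583-fold. KCNMB2 passed the low-count filter only through the caMKL1 group, so it had to be higher there.

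LMOD1, the actin nucleator of smooth muscle, reached the largest mean per-length level of the 9 genes in LM2 caMKL1 cells. Length here counts all annotated exon bases of a gene, 3967 for LMOD1 and 25535 for LPP, so per-length orders depend on the annotation. By CPM alone LPP stood higher, at 1320. Its counts were 3, 2 and 12 in control, 226, 172 and 217 with MKL1, and 5809, 5854 and 5766 with caMKL1. The CPM were 0.217 ± 0.206, 7.06 ± 0.768 and 261.7 ± 33.6, without overlap. The fitted ratios to control were 31.4-fold and 1167-fold, and the control level rests on 17 counts, 12 of them in replicate 3. Without that library the log2 ratios went from 4.97 to 6.10 with MKL1 and from 10.19 to 11.31 with caMKL1. At 66.0 CPM per kilobase the caMKL1 level lay at the 97.3rd percentile of the tested genes. Of the 6 other leiomodins and tropomodulins, 5 were called higher with caMKL1 (4 when scaled by library totals), among them TMOD1, which caps the pointed end of actin filaments, from 0.411 to 38.9 CPM. LMOD2 and LMOD3, the striated muscle leiomodins, were called higher too but reached only 0.869 and 1.24 CPM. LMOD2 passed the low-count filter only through the caMKL1 group, so it had to be higher there.

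SYNPO2, a partner of filamin and alpha-actinin, was low in LM2 control at 35, 39 and 54 counts. MKL1 libraries held 111, 81 and 140 counts and caMKL1 libraries 3056, 2852 and 2832. The groups did not overlap, at 1.65 ± 0.340, 3.73 ± 0.238 and 130.8 ± 11.9 CPM, or 2.27-fold and 79.0-fold over control. Of its 7 tested relatives and partners, 6 were called higher with caMKL1 and 1 lower: HSPB8 was 15.6-fold higher, ACTN1 5.29-fold, FLNC 3.97-fold and BAG3 2.83-fold, while its relative SYNPO was 0.625-fold.

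LPP, a zyxin family protein of focal adhesions and dense bodies, was already abundant. It measured 368, 366 and 374 CPM in LM2 control, 377, 513 and 504 with MKL1, and 1133, 1398 and 1429 with caMKL1. The caMKL1 group stood apart at 3.57-fold over control. With MKL1 the log2 ratio of 0.33 did not pass the threshold; it did so at a log2 ratio of 0.46 without replicate 1 of the MKL1 group. Of its 8 tested relatives, 5 were called higher and 2 lower with caMKL1 (3 and 2 when scaled by library totals): FBLIM1 was 10.2-fold and ZYX 5.11-fold higher, and AJUBA was 0.280-fold.

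SYNM, SMTN and DES did not share the large rises in LM2. With caMKL1 SYNM rose modestly, SMTN overlapped control and DES was lower. SYNM stood at 38.6 ± 2.92 CPM in control, 36.6 ± 3.65 with MKL1 and 63.8 ± 2.58 with caMKL1; MKL1 overlapped control, and caMKL1 was 1.65-fold over it without overlap. Of 10 tested filament partners, 4 were called higher and 5 lower with caMKL1, vimentin (VIM) at 3.94-fold and dystrophin (DMD) at 0.205-fold. Of the SYNM exon bases, 27.8% are shared with other genes, mostly the antisense AC036108.2, whose reads cannot be told apart without strand. SMTN measured 33.9, 35.6 and 32.5 CPM in control, 43.3, 34.99 and 34.1 with MKL1 and 39.1, 31.9 and 28.6 with caMKL1. All 3 SMTN groups overlapped, with log2 ratios of 0.14 and -0.03; scaled by library totals, which moved the median of all genes by -0.41, the caMKL1 value became -0.43 and was called lower. DES was near the limit of counting and lower with both constructs: 8, 11 and 9 counts in control, 0, 0 and 2 with MKL1 and 1, 2 and 1 with caMKL1. The DES ratios were 0.0628 (95% counting interval 0.00724 to 0.249) and 0.164 (0.0419 to 0.469); it did not pass the filter; in a fit without that filter its log2 ratios were -3.71 and -2.51, both past the threshold.

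**Figure D1:**
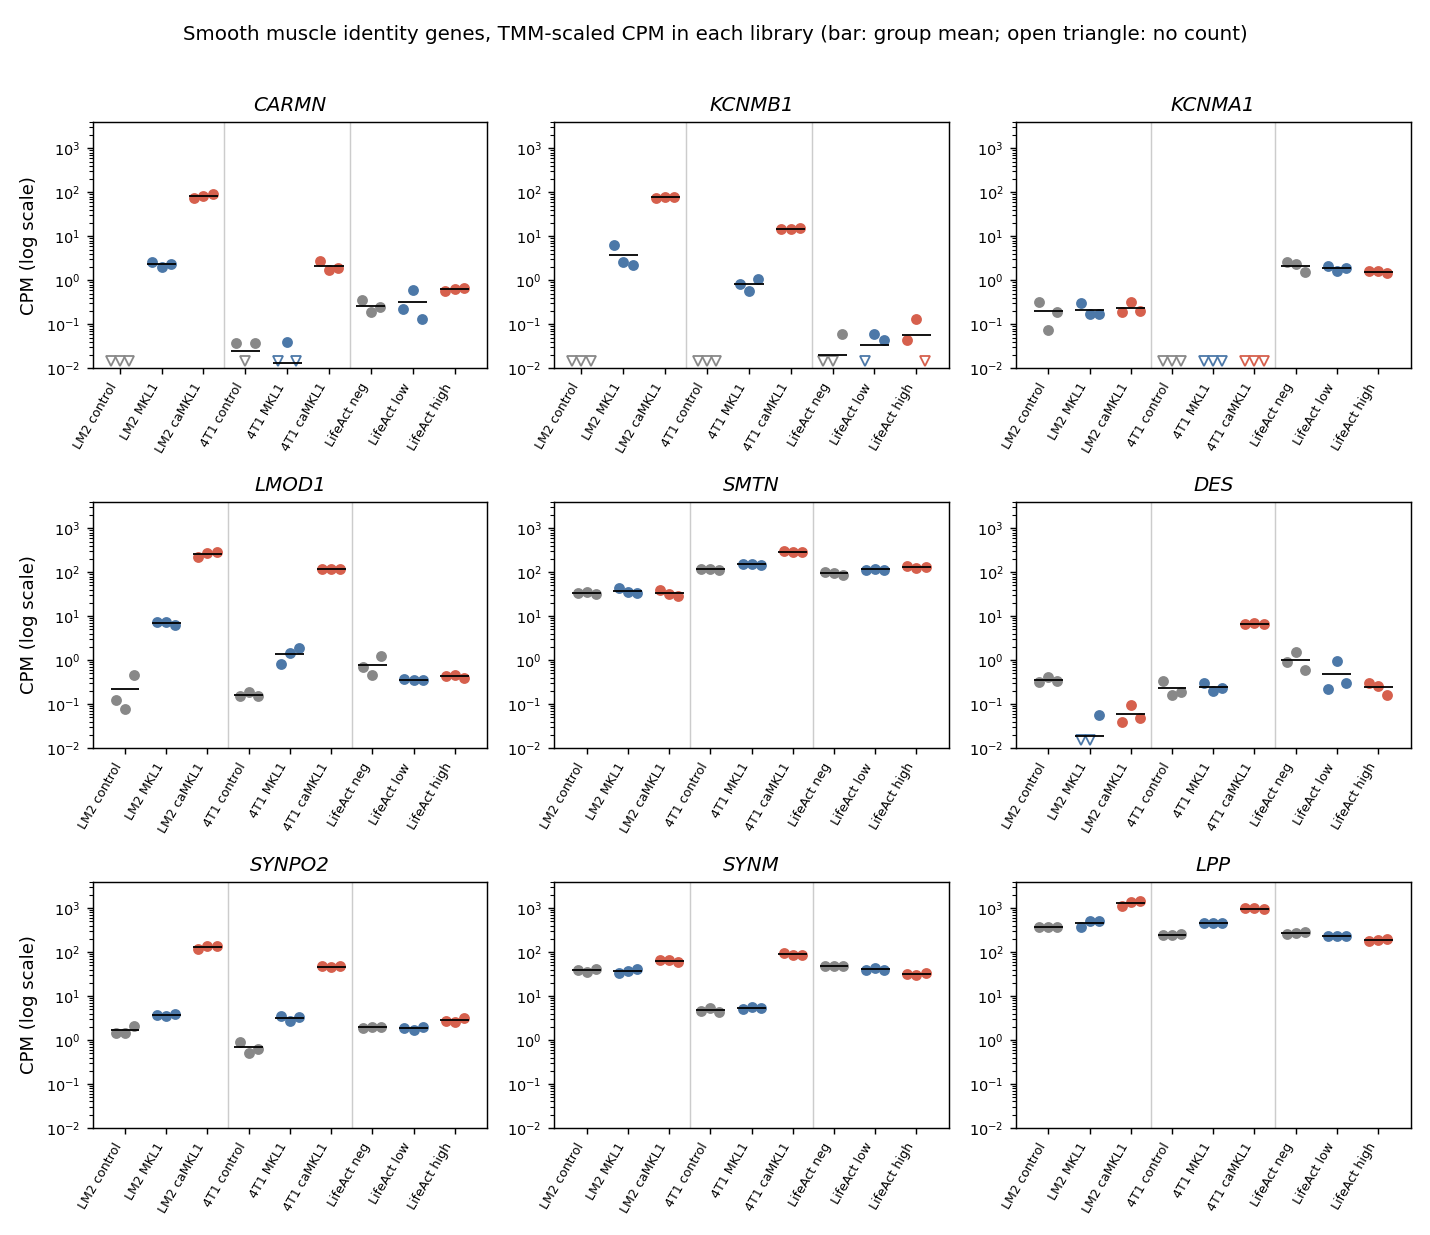
Level of each gene in CPM (log axis) in every library of the 9 groups; points are libraries, bars are group means, and open triangles are libraries without a count, drawn near the foot of the axis. CARMN, KCNMB1, LMOD1 and SYNPO2 increase from control through MKL1 to caMKL1 in LM2, SMTN stays between 28.6 and 43.3 CPM there, and DES is low in LM2 and raised in 4T1 caMKL1.

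Across the LM2 genes the order of response differed from the order of level. With caMKL1 the per-kilobase order was LMOD1 (66.0 ± 8.47), LPP (51.7 ± 6.37), KCNMB1 (12.8 ± 0.440), SYNM (8.20 ± 0.332), SYNPO2 (6.69 ± 0.610), CARMN (4.71 ± 0.491) and SMTN (3.24 ± 0.527), with DES and KCNMA1 far below. The mean ± SD intervals of LMOD1 and LPP overlapped, and those of the other neighbours down to SMTN did not. The MKL1 construct alone reached a small part of the caMKL1 change in CPM: 2.79% for CARMN, 4.88% for KCNMB1, 2.62% for LMOD1, 1.62% for SYNPO2 and 9.99% for LPP. In the fit, 4 of the 7 tested genes were called higher and 0 lower with MKL1 against control, where 7.25% of all tested genes were called higher, 4.74% lower and 12% in either direction. With caMKL1 6 of 7 were called higher and 0 lower, where 31.9% of all were called higher, 33% lower and 64.9% in either direction. Against MKL1, caMKL1 was called higher for 6 of 7, where 32.6% were called higher, 31.9% lower and 64.5% in either direction. Groups that did not overlap were also common among all genes: 16.5% lay higher and 15.7% lower with MKL1, 34.6% and 36.7% with caMKL1, and 33.4% and 32.6% for caMKL1 against MKL1. The list was chosen with these contrasts in view and nothing is read from those counts; CARMN, KCNMB1 and LMOD1 also passed the filter only through the groups where they were high.

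In 4T1 cells the same genes were measured in another species, and all 8 tested genes were called higher with caMKL1, where 36.2% of all tested genes were called higher, 35.8% lower and 72% in either direction. With MKL1, 5 of the 8 were called higher, where 19.3% were called higher, 15% lower and 34.3% in either direction. For caMKL1 against MKL1 all 8 were called higher, where 33.8% were called higher, 32.8% lower and 66.6% in either direction. Among all genes the groups lay apart upward in 23.4% and downward in 20.7% with MKL1, in 37% and 36.7% with caMKL1, and in 35.4% and 34.7% for caMKL1 against MKL1. Carmn and Des passed the low-count filter only through the caMKL1 group, and Kcnmb1 and Lmod1 only through the 2 groups with a construct. These 4 had to differ there, so no p-value is given for their higher levels and nothing is read from the counts of members. Scaling by library totals moved the median of all genes by -0.18 for caMKL1 and changed none of these calls.

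Lmod1 again had the largest ratio among the members with more than 3 control counts. Its counts were 4, 6 and 4 in control, 19, 37 and 42 with MKL1 and 2632, 3222 and 2834 with caMKL1, without overlap. The ratios were 8.21-fold with MKL1 and 681.9-fold with caMKL1. Its relative Tmod1 rose 8.49-fold with caMKL1, and the abundant Tmod3 1.18-fold. Of the 4 tested relatives 2 were called higher and 0 lower, beside 36.2% and 35.8% of all tested genes. When scaled by library totals 1 was higher and 1 lower.

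Kcnmb1 had 0 counts in all 3 control libraries, 19, 14 and 24 with MKL1 and 340, 391 and 377 with caMKL1. Its level was at least 22.9-fold and at least 418-fold higher than the control floor of 3 counts. Kcnma1, the pore, had 0 counts in all 9 libraries. A count of 0 in the caMKL1 group allows up to 3 counts over its libraries, beside 1108 for Kcnmb1.

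**Figure D2:**
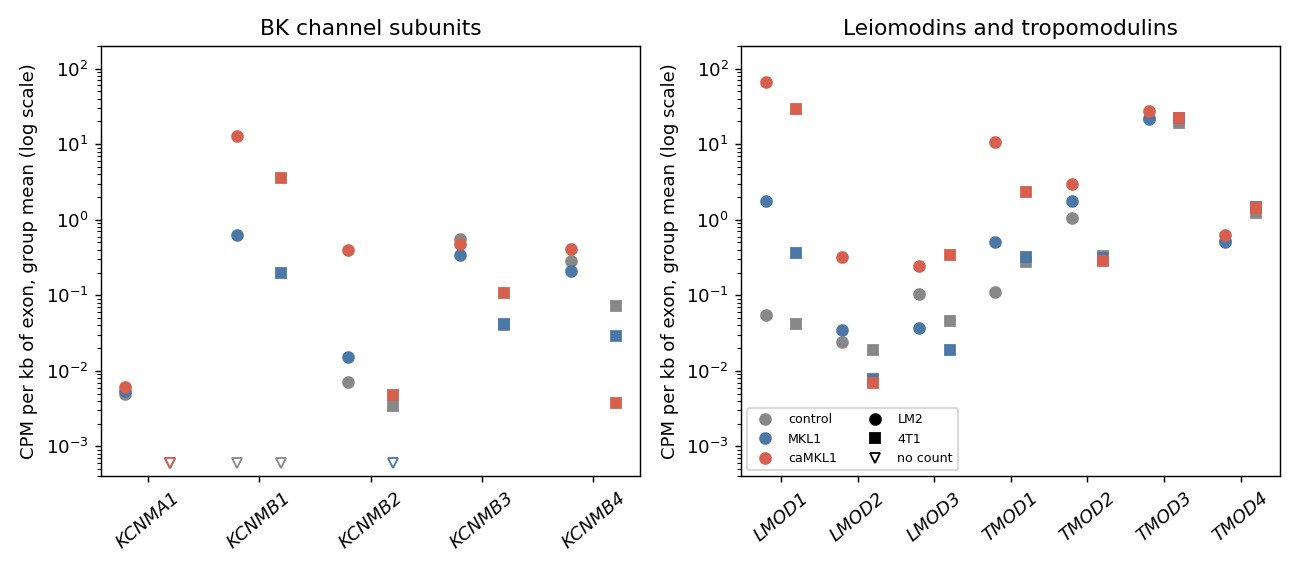
Group mean levels per kilobase of exon (log axis) of BK channel subunits and of leiomodins and tropomodulins in LM2 (circles) and 4T1 (squares); colours give the construct, open triangles mean no count, and points at equal height overlap. KCNMB1 reaches 12.8 CPM per kilobase in LM2 caMKL1 cells while KCNMA1 stays at 0.00609, and LMOD1 rises past TMOD3 in both lines.

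Carmn was higher in 4T1 with caMKL1, and no difference was detectable with MKL1. Its counts were 1, 0 and 1 in control, 0, 1 and 0 with MKL1 and 61, 46 and 48 with caMKL1. The caMKL1 ratio was 87.7 (95% counting interval 23.9 to 731) on a base of 2 counts. Its level of 2.12 ± 0.528 CPM was below the 84.9 CPM of human CARMN, but the annotated exons differ in length and per kilobase the levels were 0.922 and 4.71; the tables were scaled separately and this difference was not tested.

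Synpo2 rose with both constructs. It measured 0.879, 0.514 and 0.640 CPM in 4T1 control, 3.44, 2.70 and 3.29 with MKL1 and 48.2, 45.0 and 47.5 with caMKL1. The groups did not overlap, at 4.66-fold (edgeR adjusted p = 1.96e-09) and 69.6-fold (edgeR adjusted p = 3.57e-23). Its relative Synpo fell, at 0.531-fold with caMKL1, after rising 1.61-fold with MKL1.

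The intermediate filament genes were higher in 4T1 with caMKL1 than with MKL1 or control. Synm stood at 4.798 ± 0.511 CPM in control, 5.38 ± 0.251 with MKL1 and 88.7 ± 4.08 with caMKL1, or 1.11-fold (edgeR adjusted p = 0.279) and 18.4-fold (edgeR adjusted p = 2.49e-24). Des had 9, 5 and 5 counts in control, 7, 5 and 5 with MKL1 and 147, 187 and 163 with caMKL1. MKL1 overlapped control (edgeR adjusted p = 0.897), and caMKL1 lay above it in every library, at 28.9-fold. The direct contrast of caMKL1 with MKL1 gave 26.9-fold for Des and 16.5-fold for Synm, the latter with an edgeR adjusted p = 1.88e-23. Of 11 listed filament partners, 7 were higher and 2 lower with caMKL1 (7 and 3 by library totals), beside 36.2% and 35.8% of all tested genes. Among them Gfap passed the low-count filter only through the caMKL1 group. The dystrobrevin gene Dtna rose 13.1-fold, syncoilin (Sync) 5.61-fold, the desmin chaperone Cryab 4.09-fold and desmoplakin (Dsp) 2.96-fold. The 6 skeletal muscle markers summed to 255.4 to 268.5 CPM with caMKL1 and 1.05 to 1.12 in control. Nearly all of it was Tnnt3, which stood at 263 CPM with caMKL1 against 1.06 in control, while Myod1 and Myf5 had 0 counts. Of 4 tested cardiac markers 3 were higher and 1 lower, beside the same shares of all genes. The 3 higher, Myh6, Mybpc3 and Nppa, passed the low-count filter only through the caMKL1 group. They had to be higher there, so nothing is read from this count. Myh6 went from 0 to 9.20 CPM. Tnnt2 was the lower 1, from 125 to 57.0 CPM. This took the sum of the 6 listed from 122.2 to 128.4 down to 68.4 to 70.3 CPM. The part of such genes in the Des result was not tested.

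Smtn and Lpp, abundant at the start, rose less in fold. Smtn measured 121.02, 119 and 113 CPM in control, 153, 155 and 149 with MKL1 and 298, 291 and 291 with caMKL1, at 1.30-fold and 2.501-fold (edgeR adjusted p = 2.51e-09 and 5.17e-21). Of the Smtn exon bases, 16.3% are shared with the antisense Gm11946, whose own level was 2.13 to 3.35 CPM. Lpp measured 243, 249 and 256 CPM in control, 460, 455 and 453 with MKL1 and 988, 998 and 947 with caMKL1, at 1.83-fold and 3.92-fold (edgeR adjusted p = 2.76e-17 and 2.41e-25). Of its 7 tested relatives, 6 rose and 1 fell with caMKL1 (5 and 1 by library totals), beside 36.2% and 35.8% of all tested genes. Palld rose 6.44-fold and Fblim1 4.81-fold. Per kilobase the 4T1 caMKL1 order was Smtn (67.0 ± 0.910 CPM), Lpp (44.3 ± 1.22), Lmod1 (29.7 ± 0.407), Synm (11.2 ± 0.514), Synpo2 (3.58 ± 0.129) and Kcnmb1 (3.57 ± 0.119), which did not differ beyond their spread, then Des (1.78 ± 0.0487) and Carmn (0.922 ± 0.229). MKL1 gave 28.4% of the caMKL1 change in CPM for Lpp and 19.8% for Smtn, against 1.06% for Lmod1, 5.53% for Kcnmb1 and 5.33% for Synpo2. Mrtfa itself was higher in the MKL1 libraries (above). Of 2 listed smoothelin relatives, only Smtnl2 was tested in 4T1, and it was 0.477-fold with caMKL1 (edgeR adjusted p = 0.00065).

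**Figure D3:**
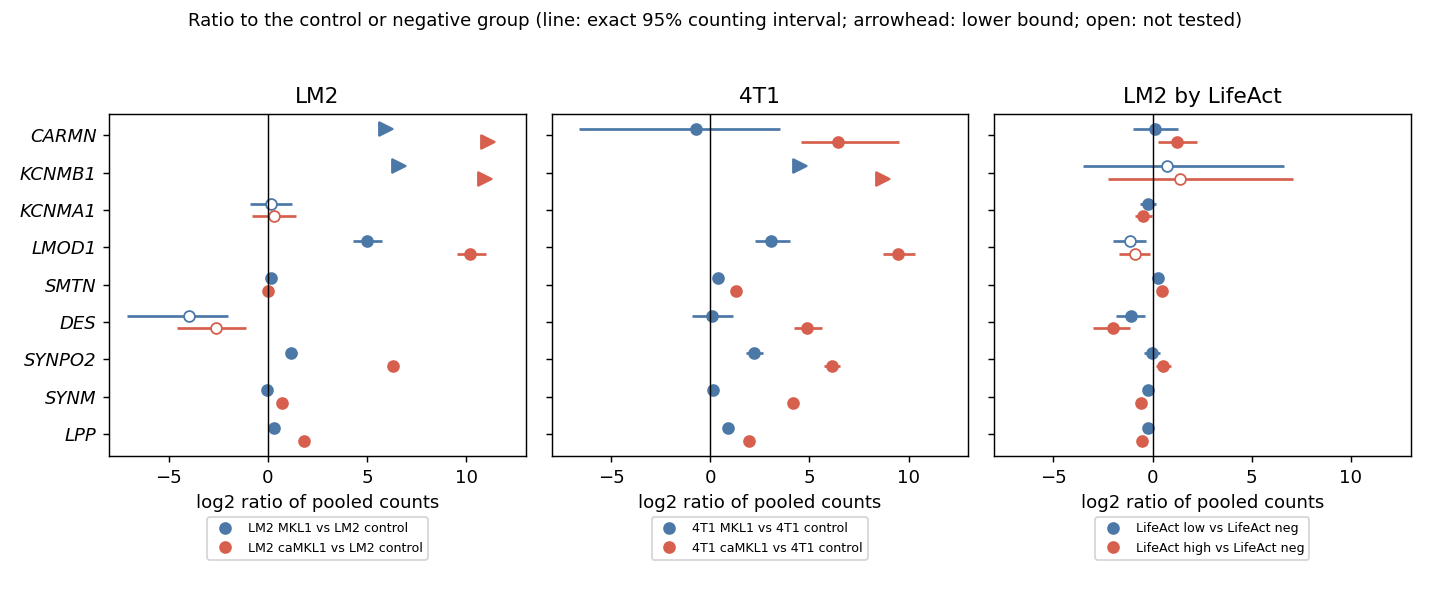
Log2 ratio of pooled counts to the control or LifeAct negative group for each gene, with exact 95% counting intervals; arrowheads are lower bounds against a group without counts and open circles were not tested. In LM2, DES lies below 0 while it lies above 0 in 4T1 with caMKL1, SMTN lies near 0 in LM2, and apart from DES and CARMN the tested LifeAct ratios lie within 1 log2 unit of 0.

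Of the wider contractile list of 22 smooth muscle genes, 21 were tested in both lines. With MKL1 15 were higher and 1 lower in LM2, where 7.25% and 4.74% of all tested genes were, and 21 higher and 0 lower in 4T1, where 19.3% and 15% were. With caMKL1 20 were higher and 0 lower in LM2, beside 31.9% and 33% of all. In 4T1 20 were higher and 1 lower, beside 36.2% and 35.8%. DESeq2 size factors and library totals left these counts as they were. Some listed genes passed the low-count filter only through construct groups, such as ACTG2, with 0, 1 and 0 control counts in LM2. In 4T1 these included Actg2 (1, 1 and 1) and Cnn1 (4, 5 and 5). Such genes had to differ there, so nothing is read from the list counts. TPM2 was 21.8-fold and MYL9 41.1-fold higher in LM2, and Tpm1 11.4-fold higher in 4T1, where Cnn1 went from 0.167 to 795 CPM. MYH11, the smooth muscle myosin heavy chain and a defining marker of the mature cell, measured 2.02 CPM in LM2 control and 2.07 with caMKL1, and rose from 0.241 to 187 CPM in 4T1. Of the 13 listed regulators, SRF was higher with caMKL1 in LM2 (4.50-fold) and 4T1 (3.85-fold), and MRTFB, the paralog of MRTFA, was 0.289-fold in LM2. Over the whole list 6 of 10 tested were higher and 2 lower in LM2 caMKL1 cells, and 7 of 9 higher and 1 lower in 4T1. Among the tested, HEY2 passed the filter only through the caMKL1 group in both lines. The 6 pericyte markers summed to 33.9 to 36.7 CPM in LM2 control and 106.5 to 142.9 with caMKL1, with CSPG4, KCNJ8 and ABCC9 higher (7.75 to 82.6, 2.18 to 18.9 and 5.44 to 8.73 CPM) and RGS5, PDGFRB and NOTCH3 lower, and their part in the results was not tested.

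The nearest tested genes on either side were compared with each member. SELENOM, whose annotated end lies 14 bases from that of SMTN, was 10.1-fold higher with caMKL1 in LM2, where SMTN itself was flat, and Selenom rose 4.59-fold in 4T1 (edgeR adjusted p = 7.56e-19). Next to desmin, Speg, a kinase of striated muscle, rose 14.7-fold in 4T1 caMKL1 cells (edgeR adjusted p = 1.08e-19), and SPEG in LM2 was 0.746-fold. Both genes of that pair were thus higher with caMKL1 in 4T1, and neither rose in LM2. With MKL1 in 4T1 they parted, Speg at 3.21-fold and Des at 1.07-fold. On the other side of desmin, Dnpep was 1.94-fold with caMKL1 in 4T1 and DNPEP 0.938-fold in LM2. On the CARMN side, PCYOX1L fell by 2.10 on the log2 scale in LM2, and Pcyox1l rose 1.93-fold in 4T1. The nearer mouse neighbour, Bvht, 2.152 kb from Carmn, rose 3.26-fold with caMKL1. MYOZ2, beside SYNPO2, went from 4 counts over the LM2 control libraries to 164 with caMKL1. Other LM2 neighbours varied: CSNK1A1, TUG1 and SEC24D were 1.27-, 1.29- and 1.43-fold, and SHISA4, beside LMOD1, and RANBP17, beside KCNMB1, 4.81- and 4.32-fold. LCP2, the nearer neighbour of KCNMB1, went from 0.0126 to 3.30 CPM.

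**Figure D4:**
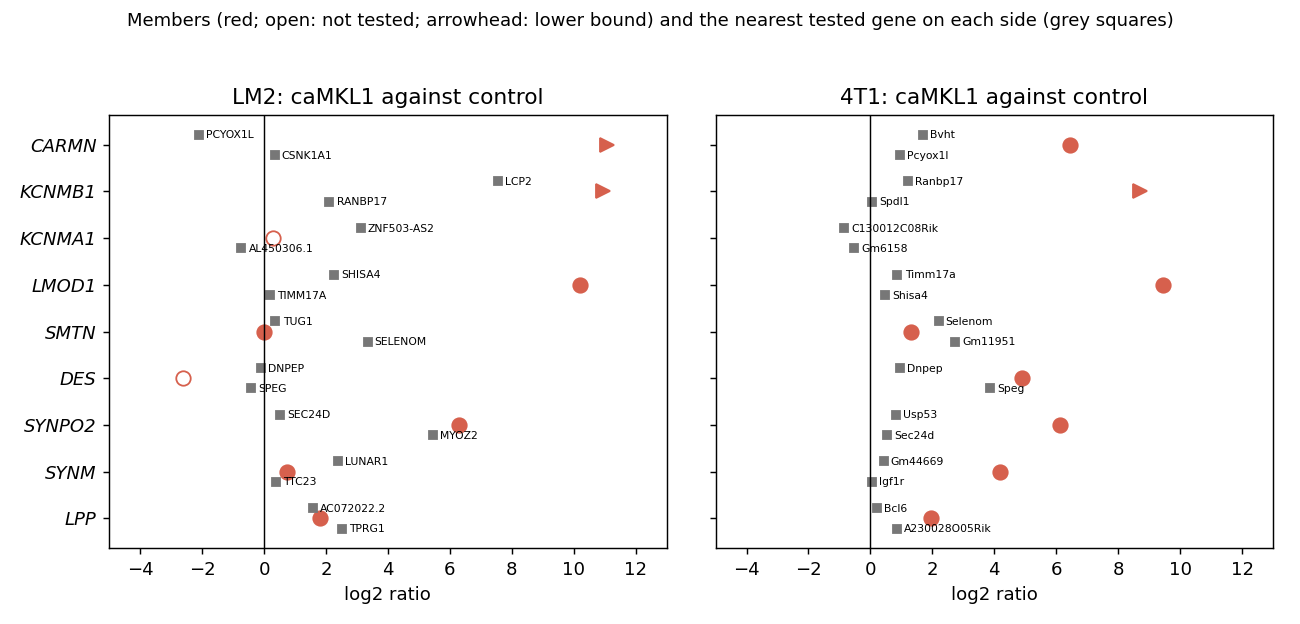
Log2 ratio of caMKL1 to control for each gene (red) and its nearest tested neighbours on either side (grey squares) in LM2 and 4T1; arrowheads are lower bounds and open circles were not tested. CARMN, KCNMB1 and LMOD1 lie to the right of their neighbours in both lines. SPEG, DNPEP and DES lie on the same side of 0 within each line.

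The genes most like each member were ranked by the root mean square difference of log2 CPM over the 9 libraries of an experiment, centred on control. In LM2, RPE65, a retinal isomerase gene, lay nearest to both CARMN (0.279) and KCNMB1 (0.343), with 0.0388, 3.80 and 137 CPM over the 3 groups. The next nearest to KCNMB1 were CARMN and MYOSLID, a smooth muscle long noncoding RNA. RPE65 and MYOSLID shared with KCNMB1 a high replicate 1 of the MKL1 group, at 6.11 and 6.55 CPM, while CARMN did not. In 4T1, Rpe65 had 10, 5 and 7 counts over the 3 groups, and Myh11 was nearest to Lmod1 (0.382). SEMA3A and ENAH were nearest to LPP in LM2, and Irak2 to Lpp in 4T1.

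In the LifeAct experiment some members were called higher and some lower, as among all genes. Nothing is read from the counts of members, and the calls of DES and CARMN depended on the low-count filter (below). Of the 7 tested, 3 were called higher and 3 lower in LifeAct high against negative cells, where 71.1% of all tested genes were called, 36% higher and 35.2% lower. In low cells 1 was higher and 3 lower, where 49.6% were called, 26% higher and 23.6% lower. High against low gave 2 higher and 2 lower, where 50.3% were called, 26.6% higher and 23.7% lower. Groups lay apart upward and downward in 28.9% and 27.4% of all genes for low, 35.8% and 35.9% for high, and 29.4% and 28.3% for high against low. These libraries were rRNA-depleted and those of the LM2 experiment polyA-selected, so levels were not compared between them.

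SMTN was higher with more LifeAct: 101, 97.9 and 87.3 CPM in negative, 114, 119 and 115 in low and 135, 124 and 130 in high cells, without overlap. The log2 ratios to negative were 0.28 ± 0.052 (SE; edgeR adjusted p = 4.97e-05) and 0.44 ± 0.052 (edgeR adjusted p = 1.2e-08). The step from low to high, 0.16 (edgeR adjusted p = 0.008), was lost when scaled by library totals (edgeR adjusted p = 0.126). LPP and SYNM went the other way. LPP measured 258, 265.3 and 281 CPM in negative, 232, 232 and 227 in low and 180.8, 190 and 193 in high cells, and fell by 0.22 and 0.51 on the log2 scale (edgeR adjusted p = 6.49e-05 and 8.41e-12). SYNM measured 47.6, 49.1 and 47.6, then 39.6, 43.4 and 38.7, then 32.4, 30.5 and 33.6 CPM, and fell by 0.25 and 0.58 (edgeR adjusted p = 0.00127 and 3.4e-09). Neither gene's groups overlapped.

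The other members were near the limit of counting in LifeAct cells. DES had 15, 24 and 10 counts in negative, 4, 16 and 7 in low and 7, 4 and 3 in high cells. High cells fell by 2.00 on the log2 scale. DES passed the low-count filter only through the negative group, so it had to be higher there. No p-value is given for it, and nothing is read from its calls. The call for the fall of 1.09 in low cells was lost in 9 alternatives. These were DESeq2, library totals, the 6 libraries compared, and without negative replicate 1 or 2, low replicate 1 or 3, or high replicate 2 or 3. The low value was -1.90 without low replicate 2. CARMN had 6, 3 and 4 counts, then 4, 10 and 3, then 13, 10 and 12. It passed the filter only with the high group counted, so no p-value is given for its higher level there. The call for the high value of 1.20 was lost in 7 alternatives. Among them were DESeq2 and the fits without any 1 of the high replicates or negative replicate 2 or 3. SYNPO2 measured 1.93 ± 0.0309, 1.86 ± 0.136 and 2.83 ± 0.326 CPM, 1.46-fold in high cells (edgeR adjusted p = 0.017), lost without high replicate 3 (edgeR adjusted p = 0.082) and with DESeq2 (adjusted p = 0.0842). KCNMA1 measured 2.18 ± 0.527, 1.87 ± 0.264 and 1.58 ± 0.122 CPM (edgeR adjusted p = 0.0831 for high), and passed without negative replicate 3 (edgeR adjusted p = 0.0225). KCNMB1 had 0 to 2 counts and LMOD1 6 to 20 in each library, and neither was tested. Per kilobase the mean KCNMA1 level was 0.0552, 0.0474 and 0.0399 CPM over the 3 groups and that of KCNMB1 0.00337, 0.00568 and 0.00962. The KCNMB1 levels rest on 1, 2 and 3 counts per group.

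The related lists moved unevenly beside them. Of 8 synaptopodin relatives and partners 5 were higher and 1 lower in LifeAct high cells, with FLNC 3.67-fold and HSPB8 5.36-fold. Of 9 filament partners 1 was higher and 6 lower, nestin (NES) at 0.276-fold and DMD at 0.544-fold. Of 19 tested contractile genes 10 were higher and 5 lower, MYH11 at 0.324-fold, and of 9 regulators 6 were higher and 2 lower. The shares over all genes were 36% and 35.2% (above). The summed endothelial markers ran from 97.04 to 100.5 CPM in negative, 35.6 to 38.3 in low and 14.3 to 16.1 in high cells, mostly PECAM1, and the summed leukocyte markers from 6.60 to 9.23, 3.45 to 4.49 and 3.46 to 5.19. Their part in the fall of LPP, SYNM and DES was not tested. In bulk libraries fewer cells with an RNA and less RNA per cell cannot be told apart.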

How the data were processed

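RNA-seq of 27 libraries was analysed as gene counts. Per the file headers, the authors made the deposited counts with featureCounts 2.0.1 on read pairs over exons, summed by gene name, with Ensembl release 103 (GRCh38) or 102 (GRCm38); no strand setting was given, and STAR is named without a version. Per the labels, polyA RNA was selected for LM2 and 4T1 and rRNA depleted for LifeAct. Exon lengths were taken from the same deposited tables (other values). Each experiment was fitted alone over its 9 libraries in edgeR 4.0.16 (R 4.3.3): filterByExpr with a minimum count of 10, TMM scaling, quasi-likelihood F test, Benjamini-Hochberg adjustment over all tested genes, threshold 0.05. Replicates varied by a common coefficient of 0.118 (LM2), 0.0345 (4T1) and 0.0439 (LifeAct). Genes at 0 in a group were set to 3 counts over the group; ratios carry exact 95% intervals. Alternatives were DESeq2 1.42.0, its size factors, library totals, no filter, the 6 libraries compared, a replicate block and each library left out. The code was tested on simulated data. The members and lists were chosen with earlier results of these data known. Named genes were the members, MRTFA, SRF and MYOCD, up to 4 genes of each list with the smallest p, neighbours, the 3 most alike genes and defining markers; SYNPO, ZYX, KCNMB3, KCNMB4, LMOD2, LMOD3, Tmod3, MYH11 and CNN1 were also named, after their values were seen, where they bore on a member.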

Additional observations from a re-analysis of the deposited data

Results flagged for a closer look

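DES moved in opposite directions with caMKL1 in the 2 lines, in every library. In LM2 the 3 caMKL1 libraries held 4 counts against 28 in control, a ratio of 0.164, and in 4T1 they held 497 against 19, a ratio of 29.6. DES was below the low-count filter in LM2; without it the LM2 log2 ratio was -2.51, past the threshold. The difference between the lines was not tested.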

How the results depend on the processing

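Of 1006 values of single genes under alternatives, 963 kept their direction and side of the threshold, 21 lost the call, 11 gained it and 11 changed sign, none of the last in a called value. The sign changes were: CARMN in LifeAct low, -0.63 without low replicate 2 and -0.02 without negative replicate 2; Des in 4T1 MKL1, -0.08 without MKL1 replicate 1, -0.12 and -0.0046 without control replicates 2 and 3; SMTN in LM2 caMKL1, 0.0020 with DESeq2, 0.022 with its size factors, 0.00066 and 0.072 without caMKL1 replicates 2 and 3; SYNPO2 in LifeAct low, 0.0021 by library totals and 0.0057 without low replicate 2. With each library left out in turn these 4 ranged from -0.63 to 0.57, -0.12 to 0.48, -0.16 to 0.07 and -0.11 to 0.0057. The cause was not tested. LPP in LM2 MKL1 gained the call under 6 alternatives. All genes called for LM2 MKL1 numbered 2265, and 1106 to 2688 with each library left out in turn, the lowest 3 values being those without a control library. Library totals lowered the share of calls that were higher from 60.4% to 42.5% for LM2 MKL1, 49.1% to 30.9% for LM2 caMKL1, 50.5% to 33.9% for LM2 caMKL1 against MKL1, 56.2% to 37.5% for 4T1 MKL1, 50.3% to 37.4% for 4T1 caMKL1, 50.7% to 40.4% for 4T1 caMKL1 against MKL1 and 53.0% to 42.0% for LifeAct high against low; the share went from 52.3% to 58.5% for LifeAct low and from 50.6% to 48.7% for LifeAct high. Replicate numbers were not taken as pairing the libraries, since not every same-numbered pair correlated over 0.1: their deviations correlated at 0.003 to 0.297 (LM2), -0.037 to 0.216 (4T1) and -0.033 to 0.002 (LifeAct), and 7, 5 and 0 of 9 libraries correlated best with their own number, in LM2 a hint of shared variation that the labels do not explain. Low counts limited DES, KCNMB1, LMOD1 and CARMN in LifeAct and DES and KCNMA1 in LM2. A replicate block called 3258 genes for LM2 MKL1 and 5 members, 1 more than without it.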
